A study of Mus musculus with 18 samples.

Results

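Fc receptors bind the constant end of antibodies, and 9 mouse genes of this family and its signalling adaptors were followed across the foreign body response of the peritoneal cavity. They are the activating IgG receptor genes Fcgr1, Fcgr3 and Fcgr4, the inhibitory IgG receptor gene Fcgr2b, the adaptor genes Fcer1g and Tyrobp, the neonatal receptor gene Fcgrt, the low-affinity IgE receptor gene Fcer2a and the B cell gene Fcrla. They were chosen by name, with earlier results of these data known, out of 17711 genes with a named probe. Their 14 probes were among 46632 on the array, and 8 of the 9 genes had a probe that was measured well enough to test, out of 10806 genes tested.

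The animals were MacGreen mice of the C57Bl/6J strain, aged 10 to 16 weeks, whose myeloid cells make EGFP from a Csf1r promoter. Sterile objects were placed in the peritoneal cavity, and cells bright for EGFP were sorted from washes of the cavity (lavage) or from the tissue capsule that formed around the object, after digestion with collagenase. The lavage groups were day 0, from mice without an implant, and days 2, 4, 7 and 14 after surgery, and the capsule groups were days 7, 14, 21 and 28, from other mice. Each of the 9 groups had 2 bead arrays, and RNA was taken from pooled sorted cells. All groups carried the reporter, so neutrophils and other cells in which the Csf1r promoter is active could enter the sort, and lavage cells were not exposed to collagenase. Whether 2 arrays with the same label represent separate animals is not stated, so every p-value reflects the spread of these arrays alone, which may be technical.

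Arrays on slides 1 and 2, which held all lavage groups and capsule day 7, had mean intensities of 585 to 1053 and 16442 to 17559 detected probes. Arrays on slides 3 and 4, which held the later capsules, had mean intensities of 455 to 528 and 18311 to 19345 detected probes. Slide and group cannot be told apart for capsule days 14, 21 and 28. Of 8 macrophage and monocyte markers listed, 6 were tested (Adgre1, Itgam, Lyz2, Spi1, Cd14 and Mertk), and each was detected on both arrays of all 9 groups. Csf1r and Cd68 had no named probe and were not analysed here. Levels are normalised log2 intensities, and a change is a difference of group means from limma with its standard error and a Benjamini-Hochberg adjusted p over all genes tested. A gene is said to rise or fall where the adjusted p was under 0.05. In a bulk sample, fewer cells of a type and less RNA per cell cannot be told apart.

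Activating Fc gamma receptors carry no signalling motif in their ligand-binding chain and depend on the common gamma chain, encoded by Fcer1g, whose tyrosine motif recruits the kinase Syk. Fcgr1 encodes the high-affinity IgG receptor of monocytes and macrophages and is a classical interferon-gamma response gene, Fcgr3 encodes a low-affinity receptor and Fcgr4 a receptor of intermediate affinity. Fcgr2b carries an inhibitory tyrosine motif in its own tail, which recruits the lipid phosphatase encoded by Inpp5d and raises the threshold for activation by immune complexes. The balance of activating and inhibitory receptors on macrophages is known to set their response to IgG-coated material.

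In RefSeq on GRCm38.p6, Fcrla, Fcgr2b, Fcgr4, Fcgr3 and Fcer1g lie on chromosome 1 between positions 170917594 and 171234349, in that order. Fcgr1 lies on chromosome 3 (96282909 to 96293969), Tyrobp and Fcgrt on chromosome 7 (30413782 to 30417582 and 45092993 to 45103822), and Fcer2a on chromosome 8. Promoter sequences, from 250 bases before to 50 bases after the first start that the promoter table lists, were found for 8 of the 9 genes. That start was the 5′ end of the annotated gene in 6 of them, but lay 6512 bases inside the annotated gene for Fcgr3 and 4633 bases inside it for Fcrla, so those 2 windows are promoters of a start within the gene. They were searched on both strands for the PU.1 core GAGGAA, the binding motif of a transcription factor that activates many myeloid genes, and for TTCNNNGAA, the gamma-activated site bound by interferon-activated STAT factors. The searches gave no overlapping matches. The PU.1 core was present in 28.3% of 27025 RefSeq promoters of that length and TTCNNNGAA in 8.47%. The promoters of the 3 activating receptor genes and of the inhibitory gene are shown, since these genes are compared throughout. Capitals mark the matches, and all are written 5′ to 3′ in the direction of the gene.
Fcgr1 (chr3:96293920-96294219, minus strand): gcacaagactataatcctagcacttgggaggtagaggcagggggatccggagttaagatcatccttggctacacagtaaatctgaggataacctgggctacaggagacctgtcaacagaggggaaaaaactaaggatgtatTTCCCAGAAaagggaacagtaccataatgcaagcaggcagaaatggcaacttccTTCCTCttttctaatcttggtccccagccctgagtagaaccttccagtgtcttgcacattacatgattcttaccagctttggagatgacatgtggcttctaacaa
Fcgr3 (chr1:171059354-171059653, minus strand): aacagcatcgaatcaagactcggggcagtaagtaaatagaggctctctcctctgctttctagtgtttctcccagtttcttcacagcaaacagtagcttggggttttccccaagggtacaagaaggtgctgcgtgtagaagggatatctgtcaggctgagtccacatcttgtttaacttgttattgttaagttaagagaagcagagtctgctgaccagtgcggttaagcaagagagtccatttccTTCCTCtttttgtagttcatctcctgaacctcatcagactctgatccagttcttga
Fcgr4 (chr1:171018676-171018975, plus strand): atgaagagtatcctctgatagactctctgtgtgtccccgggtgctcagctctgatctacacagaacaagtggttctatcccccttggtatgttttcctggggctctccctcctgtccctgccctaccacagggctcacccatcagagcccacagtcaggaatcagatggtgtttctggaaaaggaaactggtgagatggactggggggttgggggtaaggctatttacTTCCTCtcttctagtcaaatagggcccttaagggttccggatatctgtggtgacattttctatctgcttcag
Fcgr2b (chr1:170976022-170976321, minus strand): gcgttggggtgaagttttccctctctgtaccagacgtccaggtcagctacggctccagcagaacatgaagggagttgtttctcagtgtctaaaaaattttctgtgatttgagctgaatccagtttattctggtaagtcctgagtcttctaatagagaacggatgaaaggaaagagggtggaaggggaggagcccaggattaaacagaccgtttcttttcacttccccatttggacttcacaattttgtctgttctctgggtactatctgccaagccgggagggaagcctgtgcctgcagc
Each activating receptor promoter held the PU.1 core in its reverse complement form TTCCTC, beginning at position -55 from the listed start in Fcgr1, -6 in Fcgr3 and -22 in Fcgr4. Fcgr1 also held TTCCCAGAA, beginning at position -109. These letters were not found in this window of Fcgr2b, Fcer1g, Fcgrt or Fcer2a, and Fcrla held TTCCTC at position -37. A match of letters is a description of the sequence and not a measured binding site.

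Fcgr1 was the member that varied most across the response. At lavage day 0 its 2 arrays read 8.29 and 8.51, at day 2 11.49 and 10.87, at day 4 10.85 and 10.74, at day 7 8.04 and 7.90, and at day 14 5.59 and 5.18. In the capsule it read 11.37 and 10.77 at day 7, 9.64 and 9.43 at day 14, 9.25 and 9.49 at day 21, and 9.59 and 9.55 at day 28. The cavity therefore held its highest Fcgr1 values at days 2 and 4 and its lowest at day 14, where neither array detected the probe above background, while every capsule array lay above every lavage array of days 0, 7 and 14. With lavage day 14 set at the lowest signal that could be detected, its group means spanned at least 5.37 on the log2 scale, and 0.962% of the genes tested had a wider span. All 8 tested members differed somewhere among the 9 groups (F-test in limma), as did 78.7% of all genes. The spans of the others were 2.97 for Fcrla, 1.85 for Fcgr2b, 1.69 for Tyrobp, 1.14 for Fcgrt, 1.13 for Fcgr3, 0.92 for Fcgr4 and 0.50 for Fcer1g.

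In order of level, lavage day 2, capsule day 7 and lavage day 4 came first with overlapping neighbours. They were followed by capsule days 28, 14 and 21, whose neighbours also overlapped, and then by lavage days 0, 7 and 14, which were separated from each other. On the deposited intensity scale the arrays of capsule days 14 to 28 read 372 to 558 and those of lavage day 0 read 539 to 564, so the place of the later capsules above day 0 was read after normalisation of slides of lower mean intensity.

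**Figure D1:**
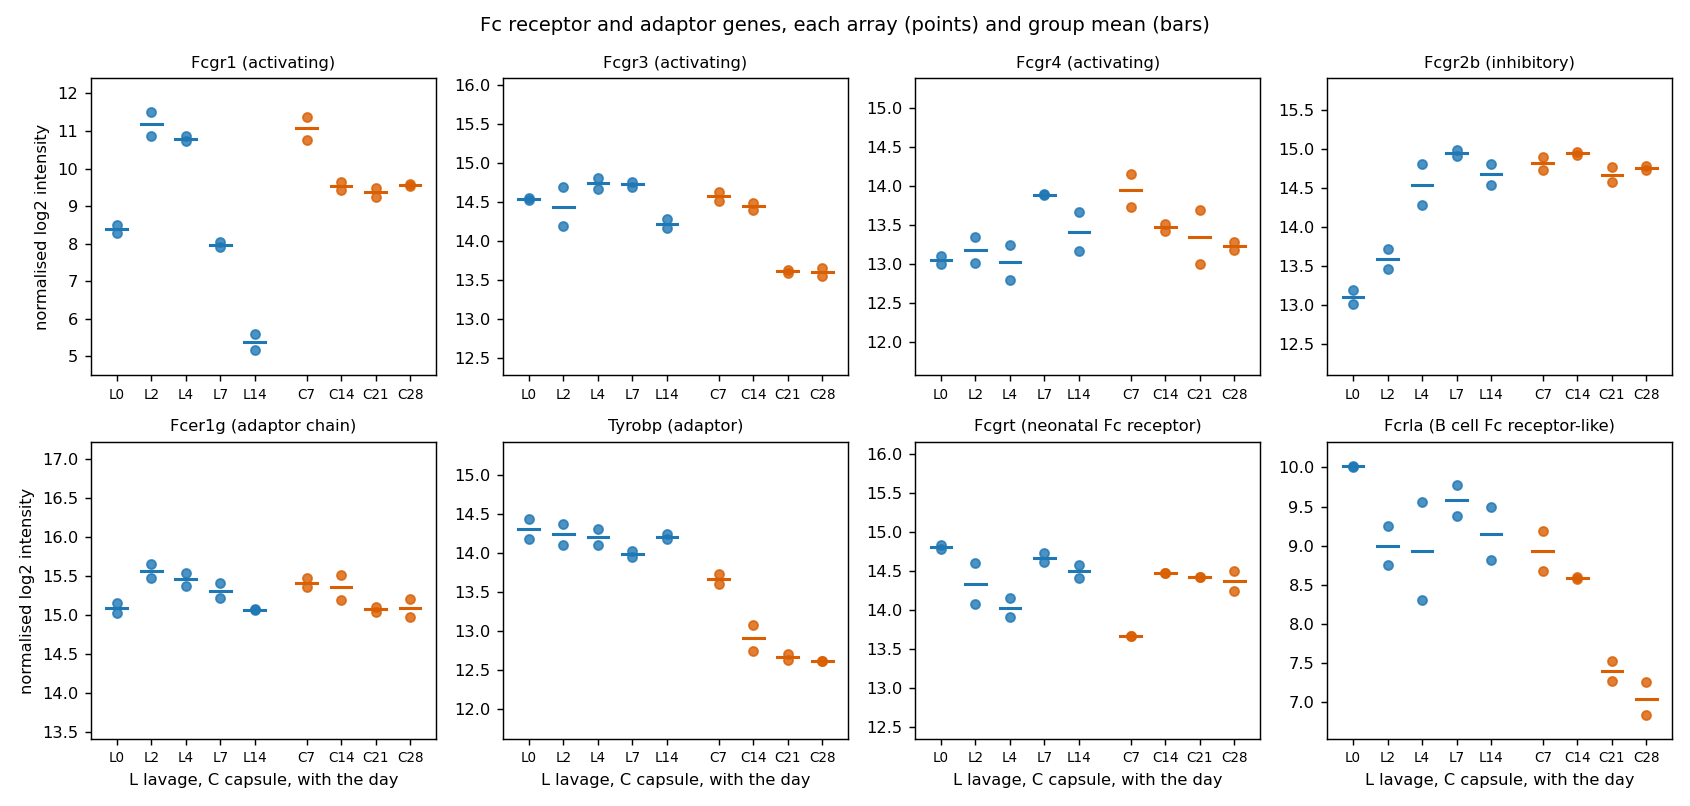
Normalised log2 intensity (vertical axis) of 8 Fc receptor and adaptor genes on each of the 18 arrays, with lavage groups (L, blue) and capsule groups (C, orange) by day. Points are arrays and bars are group means; the Fcgr1 panel has a wider vertical range than the others, and the Fcgr1 points at L14 were not detected above background.

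Against day 0, Fcgr1 rose by 2.78 at lavage day 2 (SE 0.23, adjusted p 1.05e-06; slide 1 alone gave 3.20 and slide 2 alone 2.36). It rose by 2.40 at day 4 (SE 0.23, adjusted p 6.34e-06), a difference of -0.38 from day 2 that did not pass (adjusted p 0.332). From day 4 to day 7 it fell by 2.83 (SE 0.23, adjusted p 4.49e-06), which left it at -0.43 from day 0 (adjusted p 0.188). From day 7 to day 14 it was at least 4.49-fold lower (adjusted p 1.98e-05), and at day 14 it was at least 6.04-fold lower than at day 0 (adjusted p 4.72e-07). A bound is given where no array of a group detected the probe: it sets the brighter group's mean against the higher of the dim probe's own value and the lowest signal of a detected probe on each dim array.

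Capsule cells carried more Fcgr1 RNA than cavity cells of the same day. At day 7 the difference was 3.10 (SE 0.23, adjusted p 4.01e-07; slide 1 alone gave 3.32 and slide 2 alone 2.87). At day 14 it was at least 13.3-fold (adjusted p 1.94e-08). Inside the capsule Fcgr1 fell by 1.53 between days 7 and 14 (SE 0.23, adjusted p 0.000334) and the next steps, -0.16 to day 21 and 0.20 from day 21 to day 28, did not pass. From day 7 to day 28 the fall was 1.50 (SE 0.23, adjusted p 0.000351). The growth of the capsule-to-lavage difference from day 7 to day 14, 1.05 (SE 0.32), did not pass (adjusted p 0.0508). It passed with the authors' values (2.19, adjusted p 0.011), with median scaling (1.10, 0.048), with a detection p of 0.01 (0.0478), without capsule day 7 replicate 1 (1.35, 0.0225) and without lavage day 14 replicate 1 (1.26, 0.0478). Since lavage day 14 was at background, the size of that value depends on the background correction.

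Neutrophil markers were high in the cavity at days 2 and 4, as Fcgr1 was, but not in step with it later. Of 10 listed, 7 were tested, and their summed linear level was 857 to 1210 at lavage day 0, 46339 to 67246 at day 2, 48453 to 61502 at day 4, 4256 to 4462 at day 7 and 1975 to 2407 at day 14. Against day 0, 5 of the 7 were still higher at day 7 (median change 1.49) and 3 at day 14 (median 0.44), when Fcgr1 stood at -0.43 and below detection. Of all genes, 28.6% changed at day 7 (15.1% up) and 19.8% at day 14 (10.3% up). The part of these cells in the Fcgr1 values of days 2 and 4 was not tested. In the capsule the sum was 4648 to 7602 at day 7, next to the 4256 to 4462 of lavage day 7, with Fcgr1 3.10 higher in the capsule. It was 2252 to 2254 at capsule day 14, within the range of lavage day 14, where Fcgr1 was not detected. Ly6g had no named probe, and Mpo and Ngp did not reach the detection filter.

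The low-affinity receptor gene Fcgr3 stayed near its starting level in the cavity and fell late in the capsule. Its arrays read 14.54 and 14.52 at lavage day 0, 14.19 and 14.69 at day 2, 14.67 and 14.81 at day 4, 14.70 and 14.75 at day 7, and 14.16 and 14.28 at day 14. In the capsule they read 14.62 and 14.52 at day 7, 14.40 and 14.49 at day 14, 13.62 and 13.59 at day 21, and 13.66 and 13.55 at day 28. The last 2 capsule groups lay below all other arrays. Fcgr3 did not pass against day 0 at any lavage time, with changes from -0.31 at day 14 to 0.21 at day 4, although with median scaling the day 14 value was -0.48 and passed (adjusted p 0.0321). It fell by 0.84 from capsule day 14 to day 21 (SE 0.15, adjusted p 0.00446) and by 0.97 from capsule day 7 to day 28 (SE 0.15, adjusted p 0.000465). A fall of 0.50 between lavage days 7 and 14 (adjusted p 0.0459) was lost without any 1 of the 4 arrays (adjusted p 0.07 to 0.22), with the replicate block (0.0869), with the slide as a random block (0.0579) and with the authors' values (0.0564). Between lavage days 2 and 4 it did not pass (0.30), but it rose by 0.55 without lavage day 2 replicate 2 (adjusted p 0.0408). Fcgr3 at capsule day 14 was 0.22 above lavage day 14 and did not pass (adjusted p 0.283), but passed with median scaling (0.45, adjusted p 0.0448). The extracellular parts of Fcgr3 and Fcgr2b are alike in sequence, and signal shared between their probes was not tested.

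Fcgr4, which encodes the receptor of intermediate affinity, was highest around day 7 in both places. Its arrays read 12.99 and 13.10 at lavage day 0, 13.34 and 13.01 at day 2, 13.24 and 12.79 at day 4, 13.88 and 13.89 at day 7, and 13.16 and 13.66 at day 14. The capsule arrays read 14.16 and 13.72 at day 7, 13.51 and 13.42 at day 14, 12.99 and 13.68 at day 21, and 13.27 and 13.17 at day 28. Neighbours in the order of levels overlapped throughout, except that both arrays of lavage day 7 lay above both of capsule day 14. The rise of 0.84 at lavage day 7 over day 0 (SE 0.24, adjusted p 0.0179; slide 1 alone gave 0.88 and slide 2 alone 0.79) did not pass once any 1 of its 4 arrays was left out (adjusted p 0.0615 to 0.0926). At capsule day 7 Fcgr4 was 0.89 above lavage day 0 (SE 0.24, adjusted p 0.00846; 0.0519 without lavage day 0 replicate 1 and 0.0924 without capsule day 7 replicate 1).

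Between capsule days 7 and 28 Fcgr4 fell by 0.72 (SE 0.24, adjusted p 0.0367). This call was lost without capsule day 7 replicate 1 (-0.50, adjusted p 0.24), without capsule day 28 replicate 1 (0.0919) or replicate 2 (0.146), with the authors' values (0.0525) and with no detection filter (0.0558). Capsule and lavage differed by 0.05 at day 7 (95% interval -0.46 to 0.57) and by 0.06 at day 14 (-0.46 to 0.57), neither past the threshold. The rise of 0.87 from lavage day 4 to day 7 (adjusted p 0.0341) was lost under median scaling (0.122), the authors' values (0.0551) and no filter (0.0511), and without lavage day 4 replicate 2 (0.252) or lavage day 7 replicate 1 (0.125) or 2 (0.133). From lavage day 7 to day 14 the change was -0.47 and did not pass (adjusted p 0.227), but passed with median scaling (-0.82, adjusted p 0.0385).

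Fcgr2b, the only inhibitory Fc gamma receptor gene of the mouse, was high in every capsule group by its strongest probe. In the cavity that probe was above day 0 from day 4 on. It read 13.19 and 13.01 at lavage day 0, 13.71 and 13.45 at day 2, 14.27 and 14.80 at day 4, 14.99 and 14.90 at day 7, and 14.53 and 14.81 at day 14. In the capsule it read 14.73 and 14.89 at day 7, 14.96 and 14.91 at day 14, 14.76 and 14.57 at day 21, and 14.73 and 14.78 at day 28. Lavage days 0 and 2 were the 2 lowest groups and did not overlap with any other, while the remaining arrays lay between 14.27 and 14.99.

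Against day 0 the change of Fcgr2b was 0.48 at lavage day 2 and did not pass (SE 0.18, adjusted p 0.0601), although it did with median scaling (0.66, adjusted p 0.0183) and with an offset of 50 (adjusted p 0.0435). It rose by 1.44 at day 4 (SE 0.18, adjusted p 4.71e-05), by 1.85 at day 7 (SE 0.18, adjusted p 3.65e-06; slide 1 alone gave 1.80 and slide 2 alone 1.89) and by 1.57 at day 14 (SE 0.18, adjusted p 2.07e-05). From lavage day 2 to day 4 alone it rose by 0.96 (SE 0.18, adjusted p 0.00286). The steps from day 4 to day 7 (0.41, adjusted p 0.173) and from day 7 to day 14 (-0.27, adjusted p 0.347) did not pass. Capsule day 7 was 1.71 above lavage day 0 (SE 0.18, adjusted p 2.93e-06). Capsule and lavage of the same day differed by -0.14 at day 7 (95% interval -0.51 to 0.24) and 0.27 at day 14 (-0.11 to 0.64), and capsule day 28 differed from day 7 by -0.06 (-0.43 to 0.32). None of these 3 passed.

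Of the gene's 3 probes, 2 were far dimmer, with deposited intensities of 92.2 to 453 and 76.5 to 220 against 9586 to 38713 for the probe used. As a separate test over all kept probes, the second probe changed by 1.26 at lavage day 4 (adjusted p 0.0779), rose by 1.75 at day 7 (0.018) and changed by 1.41 at day 14 (0.0676). The dimmest, detected on 10 of the 18 arrays, had a change of -0.02 at day 4 (adjusted p 0.977) and rose by 0.76 at day 7 (0.0389) and 0.83 at day 14 (0.0357). At capsule day 7 against lavage day 0, the second probe rose by 1.43 (adjusted p 0.0335) and the dimmest changed by 0.38 (0.251). Between capsule and lavage at day 14 they changed by -1.14 (adjusted p 0.0953) and -0.56 (0.105), where the probe used changed by 0.27. The second probe read 6.64 and 5.87 at capsule day 14, next to 6.29 and 5.67 at lavage day 0.

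Set side by side, Fcgr1 followed a different course from Fcgr2b, while Fcgr3 and Fcgr4 differed from Fcgr2b in some comparisons only. All comparisons with lavage day 0 share those 2 control arrays, so their values are not independent of each other. For each gene the change minus that of Fcgr2b on the same array was tested, again with adjustment over all genes. The same Fcgr2b values enter every gene's difference, so these tests share the error of that probe and are not independent. The fit treats the genes as separate, so its p-values may be too small. Where most genes passed, adjustment changes p little: for Fcgr1 at day 4 it was 0.00329 before and 0.00389 after. At lavage day 2 the Fcgr1 change exceeded that of Fcgr2b by 2.30 (SE 0.29, adjusted p 1.61e-06), the only one of the 3 activating genes and Fcer1g to differ, where 29.8% of all genes differed from Fcgr2b. Fcgr3 differed by -0.58 (adjusted p 0.0893), which passed with median scaling (-0.64, 0.0338) and without lavage day 2 replicate 2 (-0.96, 0.0175). At day 4 Fcgr1 still exceeded Fcgr2b by 0.96 (SE 0.29, adjusted p 0.00389), a difference lost without lavage day 0 replicate 1 (0.76, adjusted p 0.0521) or lavage day 4 replicate 1 (0.64, 0.0803). Fcgr3, Fcgr4 and Fcer1g trailed Fcgr2b by -1.23, -1.47 and -1.07 (adjusted p 0.000106, 9.89e-05 and 0.000298).

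By lavage day 7 the sign for Fcgr1 had turned. It trailed Fcgr2b by -2.28 (SE 0.29, adjusted p 1.58e-07), with Fcgr3 at -1.66 (1.7e-06), Fcgr4 at -1.01 (0.00297) and Fcer1g at -1.63 (1.33e-06). At day 14 Fcgr1, which was at background there, was at least 17.98-fold lower relative to Fcgr2b (adjusted p 7.69e-12), and the values were -1.88 for Fcgr3 (adjusted p 6.9e-07), -1.21 for Fcgr4 (0.000628) and -1.59 for Fcer1g (3.02e-06). Fcgr2b had itself risen by then: all 4 genes passed at days 4, 7 and 14, but so did 93.0%, 96.4% and 96.7% of all genes, so these counts say little about the 4 genes. On single arrays Fcgr1 relative to Fcgr2b stood at 2.48 and 2.11 above the day 0 mean at day 2, at 1.28 and 0.64 at day 4, and at -2.25 and -2.31 at day 7. The groups did not overlap.

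In the capsule at day 7 Fcgr1 exceeded Fcgr2b by 3.23 relative to lavage day 7 (SE 0.29, adjusted p 7.25e-09), while Fcgr3, Fcgr4 and Fcer1g differed by -0.02, 0.19 and 0.24 and did not pass; 13.8% of all genes differed from Fcgr2b. The 95% intervals of those 3 reached from -0.55 to 0.82. At day 14, against a lavage group at background, Fcgr1 was at least 11.02-fold higher relative to Fcgr2b (adjusted p 2.7e-10), and the other 3 lay between -0.21 and 0.02 and did not pass (29.1% of all genes differed). From capsule day 7 to day 28 Fcgr1 changed by -1.44 relative to Fcgr2b (SE 0.29, adjusted p 0.0012) and Fcgr3 by -0.91 (SE 0.26, adjusted p 0.0145), where 17.6% of all genes differed. The Fcgr3 value was lost without capsule day 7 replicate 1 (adjusted p 0.128), capsule day 28 replicate 1 (0.0539) or capsule day 28 replicate 2 (0.12). Fcgr4 at -0.66 (adjusted p 0.142) and Fcer1g at -0.27 (0.497) did not pass.

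**Figure D2:**
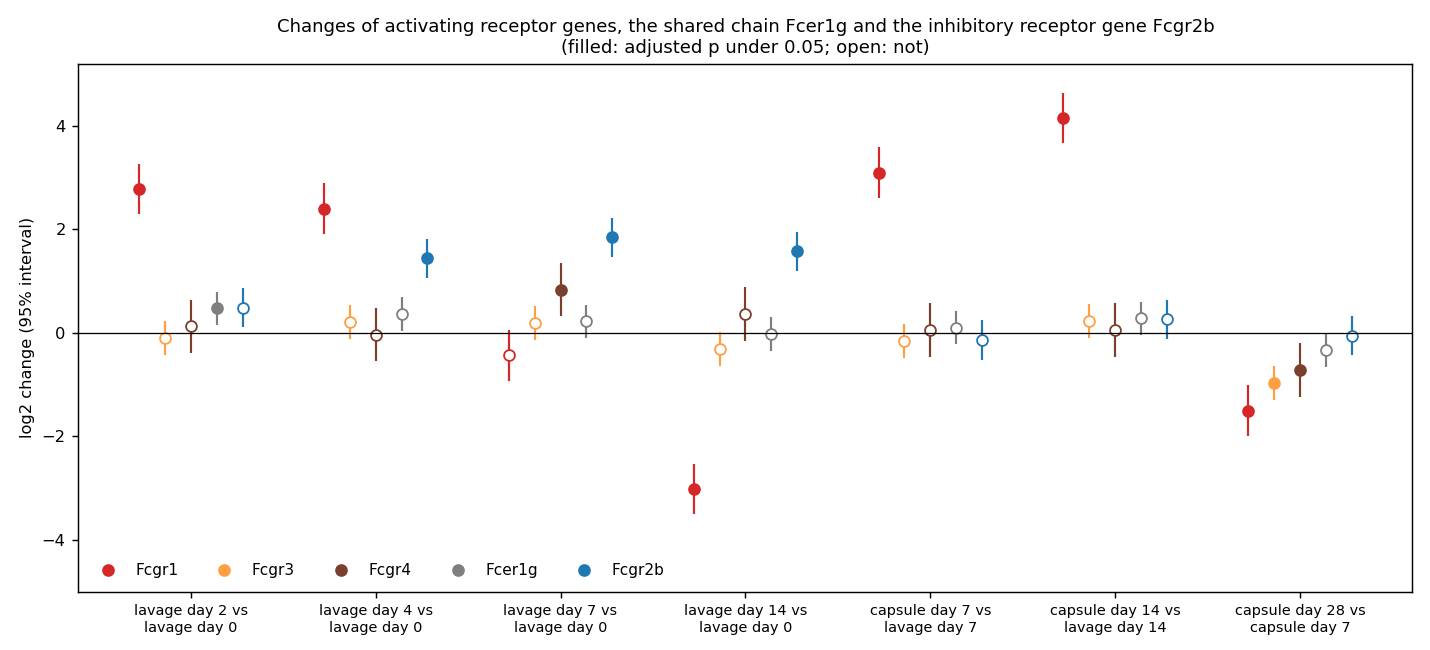
Log2 change (vertical axis) of Fcgr1, Fcgr3, Fcgr4, Fcer1g and Fcgr2b in 7 comparisons, with 95% intervals; filled points passed the adjusted threshold. Fcgr1 lies above the other genes in the lavage day 2 and day 4 columns and in both capsule against lavage columns, and below them at lavage day 14, where it was not detected.

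**Figure D3:**
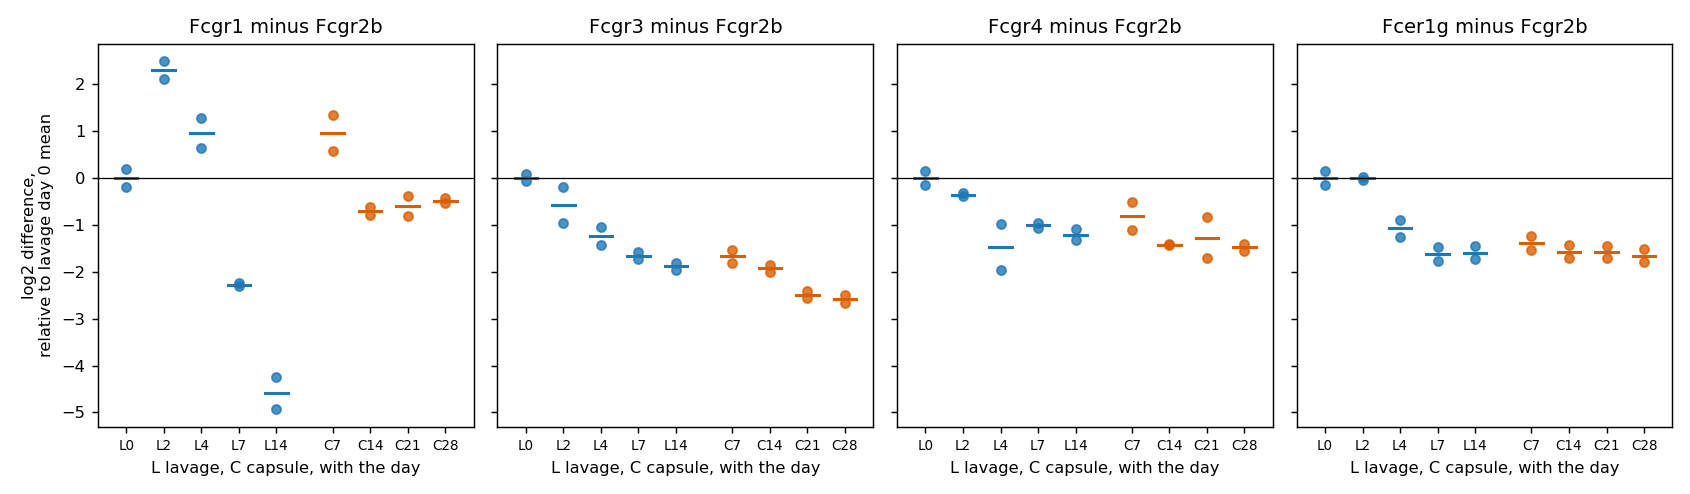
Difference of each gene from Fcgr2b on the same array (vertical axis, log2, relative to the mean of lavage day 0), by group, with arrays as points and group means as bars. Fcgr3, Fcgr4 and Fcer1g lie below the day 0 mean from lavage day 4 on and in every capsule group, and Fcgr1 lies above it at lavage days 2 and 4 and capsule day 7.

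Fcer1g, the gene of the common gamma chain through which the activating receptors signal, varied little. Its arrays read 15.03 and 15.15 at lavage day 0, 15.66 and 15.47 at day 2, 15.38 and 15.54 at day 4, 15.21 and 15.41 at day 7, and 15.07 on both at day 14. The capsule arrays read 15.48 and 15.35 at day 7, 15.52 and 15.19 at day 14, 15.04 and 15.11 at day 21, and 15.20 and 14.97 at day 28. The group means spanned 0.50, narrower than in 92.3% of genes, and the probe's deposited intensity reached 60174 on a scale whose highest value was 71532, where differences may be compressed. The rise of 0.47 at lavage day 2 (SE 0.15, adjusted p 0.0311) was lost without lavage day 0 replicate 1 (0.162) or 2 (0.0734), without lavage day 2 replicate 1 (0.199), with median scaling (0.0761) and with the compared arrays alone (0.0762). The changes at the other lavage times lay between -0.02 and 0.37 and did not pass.

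Tyrobp encodes DAP12, the adaptor of the TREM receptors and other activating myeloid receptors, and was lower in the capsule than in the cavity. Its lavage arrays read 14.43 and 14.18 at day 0, 14.10 and 14.38 at day 2, 14.31 and 14.10 at day 4, 13.95 and 14.02 at day 7, and 14.24 and 14.18 at day 14. The capsule arrays read 13.60 and 13.73 at day 7, 13.08 and 12.74 at day 14, 12.63 and 12.71 at day 21, and 12.62 and 12.61 at day 28. Every capsule array lay below every lavage array. Against day 0 its lavage changes lay between -0.32 and -0.07 and did not pass. Capsule day 7 was 0.64 below lavage day 0 (change -0.64, SE 0.15, adjusted p 0.00403; 0.0503 without lavage day 0 replicate 1) and 0.32 below lavage day 7 (change -0.32), which did not pass (adjusted p 0.158).

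At day 14 Tyrobp was 1.30 lower in the capsule than in the lavage (change -1.30, SE 0.15, adjusted p 2.09e-05). It fell by 0.76 between capsule days 7 and 14 (SE 0.15, adjusted p 0.00288) and by 1.05 between days 7 and 28 (SE 0.15, adjusted p 0.000276). In each of these values slide and group cannot be told apart. The capsule-to-lavage difference grew from day 7 to day 14, with an interaction of -0.98 (SE 0.22, adjusted p 0.0106), which did not pass with median scaling (-0.83, adjusted p 0.0606). Of all genes 11.5% passed that interaction test, and 2 of the 8 members did, Tyrobp and Fcgrt.

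Fcgrt encodes the heavy chain of the neonatal Fc receptor, which rescues IgG and albumin from lysosomal degradation. Its lavage arrays read 14.78 and 14.84 at day 0, 14.61 and 14.08 at day 2, 13.91 and 14.16 at day 4, 14.62 and 14.73 at day 7, and 14.58 and 14.42 at day 14. The capsule arrays read 13.67 on both at day 7, 14.47 on both at day 14, 14.43 and 14.42 at day 21, and 14.24 and 14.50 at day 28. Equal readings are those of probes that held the same rank on both arrays, to which quantile normalisation gives the same value. Day 0 held the highest arrays and capsule day 7 the lowest, with no overlap with any other group.

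Fcgrt fell by 0.78 at lavage day 4 (SE 0.17, adjusted p 0.00334) and by 1.00 between lavage and capsule at day 7 (SE 0.17, adjusted p 0.00059; slide 1 alone gave -0.95 and slide 2 alone -1.05). The day 2 change of -0.47 did not pass (adjusted p 0.0558), but passed with an offset of 50 (0.0391) and without lavage day 2 replicate 1 (-0.73, adjusted p 0.00933). It rose by 0.80 from capsule day 7 to day 14 (SE 0.17, adjusted p 0.00341) and by 0.70 from day 7 to day 28 (SE 0.17, adjusted p 0.00671; 0.57 and 0.0681 without capsule day 28 replicate 2). The interaction of place and day was 0.98 (SE 0.24, adjusted p 0.0173). It was lost without lavage day 7 replicate 2 (0.92, adjusted p 0.0615), capsule day 7 replicate 2 (0.0507) or capsule day 14 replicate 2 (0.0505). A rise of 0.64 from lavage day 4 to day 7 (adjusted p 0.0253) was lost with median scaling (0.0801), with the replicate block (0.0643) and without lavage day 4 replicate 1 (0.189), lavage day 7 replicate 1 (0.077) or lavage day 7 replicate 2 (0.135).

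Mast cell and basophil markers took a course like that of Fcgrt in some of these comparisons and not in others. Of 9 listed, 8 were tested. At lavage day 4 against day 0, 5 were lower and 1 higher (28.0% of all genes changed). From day 4 to day 7, 6 were higher and 1 lower (10.3% of all genes changed). In the capsule against the lavage at day 7, 6 were lower (24.1% of all genes changed). In the interaction of place and day 5 were higher (11.5% of all genes passed). From lavage day 7 to day 14, 5 were lower and 1 higher (13.1% of all genes changed). The median change was -1.18, where Fcgrt changed by -0.18 and did not pass. Their summed level was 1999 to 2122 at lavage day 0, 1090 to 1319 at day 4, 1184 to 1457 at day 7, 672 to 827 at day 14 and 194 to 298 at capsule day 7. At lavage day 14 6 were lower than at day 0 (19.8% of all genes changed), where Fcgrt changed by -0.31 and did not pass. From capsule day 7 to day 14, 2 were higher and 0 lower (median -0.08, 23.9% of all genes changed). From capsule day 7 to day 28, 1 was higher and 0 lower (median -0.10, 31.2% of all genes changed). Fcgrt rose by 0.80 and 0.70 in those comparisons. On both arrays, 0 of the 8 markers were detected at capsule day 7 and 1 at lavage day 14. The part of these cells in the Fcgrt values was not tested.

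The remaining members belong mainly to B cells. Fcrla encodes an intracellular Fc receptor-like protein of B cells, and its lavage arrays read 10.00 and 10.02 at day 0, 8.75 and 9.24 at day 2, 8.30 and 9.55 at day 4, 9.38 and 9.78 at day 7, and 9.49 and 8.82 at day 14. The capsule arrays read 9.19 and 8.68 at day 7, 8.57 and 8.60 at day 14, 7.27 and 7.52 at day 21, and 7.25 and 6.83 at day 28. Day 0 was the highest group and the last 2 capsule groups the lowest, and none of the 3 overlapped with another group. The fall of 1.89 from capsule day 7 to day 28 (SE 0.34, adjusted p 0.00122) was not seen by the gene's second kept probe (-0.48, adjusted p 0.291).

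The falls of Fcrla against day 0 were less stable. At lavage day 2 it was -1.01 (SE 0.34, adjusted p 0.0451), lost without any 1 of the 4 arrays (adjusted p 0.0507 to 0.271), with the replicate block (0.0844), with the slide as a random block (0.0504), with the authors' values (0.0737) and with no filter (0.0756). At day 4 it was -1.09 (adjusted p 0.0303), lost without lavage day 4 replicate 1 (-0.46, adjusted p 0.372), lavage day 0 replicate 1 (0.103) or 2 (0.115), with the replicate block (0.0619), median scaling (0.0505), the authors' values (0.0522), no filter (0.0526) and the compared arrays alone (0.076). The second probe fell in both, by 1.21 (adjusted p 0.015) and 1.63 (0.00204). Capsule day 7 was lower than lavage day 0 by -1.08 (adjusted p 0.0211; lost without lavage day 0 replicate 1, 0.0755, or 2, 0.082, or capsule day 7 replicate 2, 0.152). The step from capsule day 14 to day 21, -1.19 (adjusted p 0.0442), was lost without any 1 of its arrays (0.1 to 0.188), with the authors' values (0.0638) and with no filter (0.072), and the second probe gave 0.86 (0.112).

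Some Fcrla differences that did not pass did so in another setting. With median scaling these were lavage day 14 against day 0 (-1.29, adjusted p 0.0069), lavage day 14 against day 7 (-0.93, 0.0386) and the capsule next to the lavage of day 7 (-0.90, 0.0453). With the second probe they were lavage day 7 against day 0 (-1.07, adjusted p 0.0249) and the capsule next to the lavage of day 14 (-1.50, 0.00273). Without lavage day 4 replicate 2, the step from lavage day 4 to day 7 passed (1.28, adjusted p 0.0347).

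B cell markers, like Fcrla, had their highest level at lavage day 0, but later changes differed in size. Of 9 listed, 6 were tested, and their summed linear level was 7619 to 7825 at lavage day 0, 1923 to 3788 across lavage days 2 to 14, 632 to 660 at capsule day 7 and 213 to 300 at capsule day 28. In the capsule at day 7, 4 of the 6 were lower and 1 higher than in the lavage (24.1% of all genes changed). Their median change was -2.18, where Fcrla changed by -0.65 and did not pass. From capsule day 7 to day 28, 2 were lower and 1 higher (31.2% of all genes changed). Their median change was -0.26, where Fcrla fell by 1.89. Pax5 and Cr2 did not reach the detection filter. The part of B cells in the Fcrla values was not tested. Fcer2a, the gene of the low-affinity IgE receptor CD23, had 2 probes, each detected on 1 of 18 arrays, with deposited intensities of 51.7 to 177, and it was not tested.

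The counts of changed members stand beside the share of all genes that changed. At lavage day 2, 2 of the 8 tested members rose and 1 fell, where 25.0% of all genes changed, 13.3% up and 11.7% down. At day 4, 2 rose and 2 fell (28.0% of all genes, 15.4% up and 12.6% down). At day 7, 2 rose (28.6%, 15.1% up and 13.5% down). At day 14, 1 rose and 1 fell (19.8%, 10.3% up and 9.50% down). Capsule against lavage gave 1 rise and 1 fall at day 7 (24.1%, 11.6% up and 12.5% down) and again at day 14 (35.3%, 16.8% up and 18.4% down). From capsule day 7 to day 28, 1 rose and 5 fell (31.2%, 16.2% up and 15.0% down), with a median member change of -0.84 against 0.01 for all genes. The 5 were Fcgr1, Fcgr3, Fcgr4, Tyrobp and Fcrla, and the count of 6 changed members was 4 without capsule day 28 replicate 2.

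The steps between neighbouring times gave 1 changed member from lavage day 2 to 4 (11.3% of all genes), 3 from day 4 to 7 (10.3%) and 2 from day 7 to 14 (13.1%). In the capsule they gave 3 from day 7 to 14 (23.9%), 2 from day 14 to 21 (9.90%) and 0 from day 21 to 28, where 0.935% of all genes changed by limma and the unadjusted p of the members was 0.323 or more. Capsule day 7 against lavage day 0 gave 6 of 8, where 41.8% of all genes changed. Beside the late capsule falls, the summed level of 3 tested dendritic cell markers of 5 listed was 959 to 1122 at capsule day 7 and 2134 to 2368 at day 28, and that of the macrophage and monocyte markers was 94916 to 101228 and 91613 to 101208. Neutrophil markers fell over the same days, 5 of the 7 tested (median change -1.40), where 31.2% of all genes changed. Their summed level was 4648 to 7602 at capsule day 7 and 1086 to 1860 at day 28. The part of dendritic cells and neutrophils in those falls was not tested.

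Receptors that pair with the Fcer1g or Tyrobp chains, listed together with the adaptor gene Hcst, rose at lavage day 2 more often than they fell. Of 15 listed, 14 were tested, and at lavage day 2 8 rose and 1 fell, with a median change of 0.75 against 0.04 for all genes, of which 25.0% changed. In the same comparison 5 of the 7 neutrophil markers rose (median 4.95), and at day 4 again 5 (median 4.62), and their part in these counts was not tested. Clec4n, which encodes the fungal pattern receptor dectin-2, rose by 4.63 (SE 0.30, adjusted p 1.66e-07). Trem1, an amplifier of inflammation, rose by 3.84 (SE 0.31, adjusted p 9.97e-07) and Trem2, a lipid-sensing receptor of macrophages, by 1.96 (SE 0.16, adjusted p 8.72e-07). At day 4 5 rose and 1 fell (28.0% of all genes changed), among them Clec4n by 4.24, Trem2 by 1.89 and Clec5a by 2.41 (adjusted p 4.6e-07, 1.76e-06 and 4.4e-06). At days 7 and 14 the directions were mixed, with 3 up and 3 down and with 3 up and 4 down (28.6% and 19.8% of all genes changed). Trem2 was still higher by 2.01 and 1.17, while Hcst, the DAP10 adaptor gene, fell by 1.61 and 1.04 and Clec4d fell by 2.08 at day 14 (adjusted p 3.39e-05).

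In the capsule 5 of these 14 were higher and 1 lower than in the lavage at day 7, and again at day 14, where 24.1% and 35.3% of all genes changed. Trem2 was higher by 1.11 and then 2.22 (adjusted p 0.000158 and 2.09e-07), Clec5a by 1.46 at day 7 and Clec4e, the mycobacterial glycolipid receptor Mincle, by 2.02 at day 14. From capsule day 7 to day 28 3 rose and 2 fell (31.2% of all genes changed), among them Trem1 by 1.46 (adjusted p 0.00348); the count of 5 was 3 without capsule day 7 replicate 1, capsule day 7 replicate 2 or capsule day 28 replicate 2, and 8 with median scaling.

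Among other receptors with inhibitory tyrosine motifs, several rose in the first days and were higher in the capsule. Of 15 listed, 12 were tested. At lavage day 2 6 rose (25.0% of all genes changed, 13.3% up), with Cd300lf at least 7.57-fold higher (adjusted p 4.28e-06) and Lair1, a collagen receptor, up by 1.11; the count was 3 without lavage day 0 replicate 1 and 2 with the compared arrays alone. At day 4 6 rose and 2 fell (28.0% of all genes changed), among them Cd72 up by 2.46 and Lilrb4a by 1.16; the count of 8 was 4 without lavage day 0 replicate 1 and 5 when replicate 2 of either group was left out or with the authors' values. At day 7 4 rose and 4 fell and at day 14 4 rose and 3 fell, against 28.6% and 19.8% of all genes. Pecam1, an adhesion receptor, rose by 3.29 and 3.71 and Pilra changed by -3.10 and -4.33 (adjusted p 1.96e-08 and 2.07e-09).

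In the capsule at day 7, 7 of the 12 were higher and 1 lower than in the lavage, with a median of 0.98 against -0.02 for all genes, of which 24.1% changed (11.6% up and 12.5% down); the count of 8 was 5 without lavage day 7 replicate 1 or capsule day 7 replicate 1. Cd72 was higher by 2.60, Pilra by 1.49 and Lilrb4a by 1.39. At day 14 5 were higher and 3 lower (35.3% of all genes changed), with Cd72 at 3.94 and Pilra at 1.87 above the lavage and Ceacam1 at -1.29. From capsule day 7 to day 28 3 rose and 7 fell (31.2% of all genes changed), with a median of -0.78; the count of 10 was 6 without capsule day 28 replicate 2. Cd22 fell by 2.76, Pecam1 fell by 2.00 and Pirb fell by 1.74 with 1 of 2 day 28 arrays detected. Cd22 also stands in the B cell marker list. Fcgr2b did not pass in any of these 3 comparisons.

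Kinases and adaptors downstream of the tyrosine motifs changed in both directions. Of 22 listed, 19 were tested, and Syk was among them. At lavage day 2 5 rose and 1 fell (25.0% of all genes changed), with the Src-family kinase gene Fgr up by 1.06 (adjusted p 0.00128) and the adaptor gene Blnk down, changing by -0.88; the count of 6 was 2 without lavage day 0 replicate 1 or lavage day 2 replicate 1. In the capsule at day 7 5 were higher and 5 lower than in the lavage (24.1% of all genes changed), with Blnk at 1.85, Src at 1.40 and Rac2 at -1.04; the count of 10 was 6 without lavage day 7 replicate 1 or 2 or capsule day 7 replicate 1. At day 14 3 were higher and 7 lower (35.3% of all genes changed), with Blnk at 1.55, Fgr at -1.59 and Lcp2, the SLP-76 adaptor gene, at -1.22.

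Among 10 phosphatase and inhibitory adaptor genes, all of which were tested, 5 rose and 1 fell at lavage day 2 (25.0% of all genes changed), with Dok2 at 0.76 and Ptpn6, which encodes the phosphatase SHP-1, at 0.70; the count of 6 was 3 without lavage day 0 replicate 1 or lavage day 2 replicate 1. Dok3, an inhibitory adaptor of B cell receptor signalling, changed by -0.85 at day 4, -1.65 at day 7 and -1.22 at day 14 (adjusted p 0.000531, 1.36e-06 and 2.93e-05). Cblb, a ubiquitin ligase gene, was 2.48 higher in the capsule than in the lavage at day 7 (adjusted p 9.01e-07), where Ptpn6 was 0.74 lower (change -0.74).

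**Figure D4:**
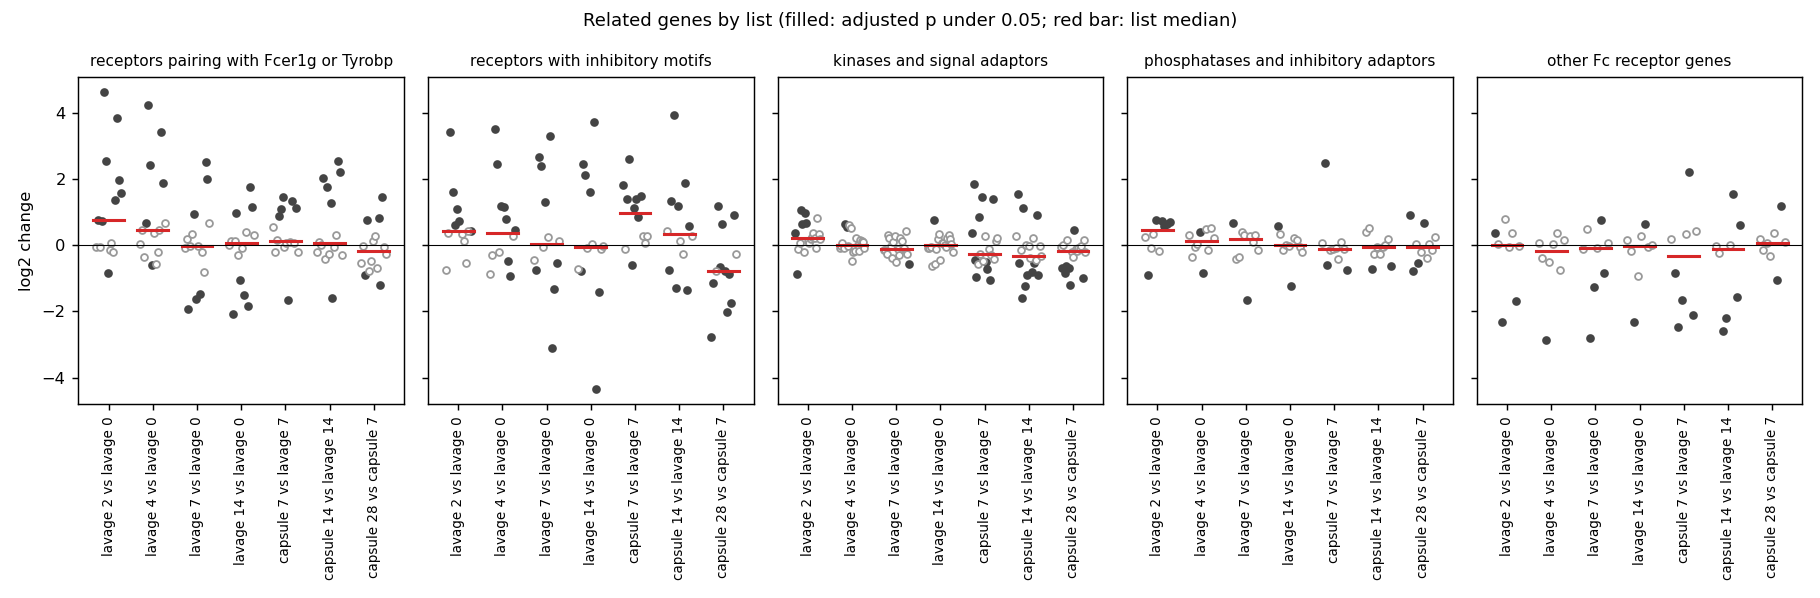
Log2 change (vertical axis) of every tested gene of the 5 related lists in 7 comparisons; each point is a gene, filled where the adjusted threshold was passed, and red bars are list medians. The widest spreads are those of receptors pairing with Fcer1g or Tyrobp and of receptors with inhibitory motifs.

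Of 10 other Fc receptor genes, 8 were tested. The IgM receptor gene Fcmr changed by -2.33 at lavage day 2, -2.86 at day 4, -2.79 at day 7 and -2.33 at day 14 (adjusted p 0.000317, 7.15e-05, 6.05e-05 and 0.000422), alongside the lower B cell marker sums given above, whose part in it was not tested. Fcrls, an Fc receptor-like scavenger receptor gene, fell by 1.68 at lavage day 2 and was 2.11 lower in the capsule than in the lavage at day 7 (change -2.11, adjusted p 0.000104). Fcrlb was 2.22 higher in the capsule at day 7 (adjusted p 5.27e-06), with 1 of 2 lavage arrays detected, and at least 2.70-fold higher at day 14 (adjusted p 6.93e-05).

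The genes whose group means followed each receptor gene most closely over the 9 groups were found by Pearson correlation, which is a description without a test. For Fcgr1 they were Mapk6 (r = 0.968), Map3k7 (0.966) and Lcp1 (0.964), and for Fcgr2b they were Tfrc (0.960), Gpnmb (0.959) and Colgalt1 (0.956). For Fcgr3 they were Khsrp (0.968), Rcn3 (0.967) and Pla2g6 (0.962), and for Fcgr4 Chid1 (0.960), Dap (0.940) and Slc25a51 (0.921). Among the members themselves the highest were Tyrobp and Fcrla (r = 0.875) and Fcgr3 and Fcrla (0.866). Against Fcgr2b, Fcgr1 had r = -0.10, Fcgr3 -0.175 and Fcgr4 0.60. Fcgr1 and Fcer1g had 0.69, and Fcgr3 and Tyrobp 0.75. All are over the same 9 means, which share slides and normalisation. The lavage day 14 mean of Fcgr1 in these correlations is a value at background.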

How the data were processed

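Per the labels' protocols, RNA of sorted cells was amplified, labelled and hybridised to Illumina mouse bead arrays. The authors deposited 1 table of probe intensity with its detection p-value (BeadStudio columns, per the file headers). They also deposited log2 values after quantile normalisation; the submitters' processing notes name BeadStudio and R 2.15.3. No source used here states how they corrected the background.

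Intensities were corrected and quantile normalised with neqc (limma 3.58.1, R 4.3.3; controls inferred from the detection p-values, offset 16). A probe entered (20985 did) if both arrays of some group detected it at p 0.05, and a gene took its entered, named probe with the highest mean. Of 46632 probes, 29976 named 1 gene, 10 several and 16646 none. limma fitted 1 mean per group over 18 arrays (9 residual degrees of freedom, prior 4.58; two-sided; Benjamini-Hochberg within each of 15 comparisons, 7 of them main, threshold 0.05). The differences from Fcgr2b were fitted separately, with a prior of their own. Marker sums add linear normalised levels without the offset. The fit was tested on simulated data. The number of arrays limits the precision.

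Members and lists were chosen with earlier results of these data known. All members are named. The related genes named are among the up to 3 called genes of smallest p per list and main comparison. Those of them whose call was lost without 1 array are counted and not named, a choice made after their values were seen. Some whose call held are not named there either, such as Cd300lf at lavage days 4, 7 and 14 and Dok3 from capsule day 7 to day 28.

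Per the labels, replicates 1 and 2 of 6 groups shared slides 1 and 2; their deviations correlated at -0.11 to 0.129 over 15 pairs (median -0.007, 1 pair over 0.1). Alternatives changed the offset (50), the scaling (median), the values (the authors' own), the filter (none, or a detection p of 0.01), the arrays fitted (compared groups alone, or 1 left out), the probe, or added the slide as a random block or the replicate block; for the secondary comparisons and related genes they were added after the data were seen.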

Additional observations from a re-analysis of the deposited data

Results flagged for a closer look

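The capsule-to-lavage difference of 2 adaptor and receptor genes changed between day 7 and day 14 by a test of the interaction, in opposite directions. For Tyrobp the change was -0.98: the capsule was 0.32 below the lavage at day 7 (-0.32) and 1.30 below it at day 14 (-1.30). For Fcgrt it was 0.98: between lavage and capsule it fell by 1.00 at day 7, and the day 14 difference was -0.03. Capsule day 14 lies on a slide of its own, so slide and group cannot be told apart in either value. Leaving out each array in turn, Tyrobp ranged from -1.15 to -0.81 (adjusted p up to 0.0495) and Fcgrt from 0.89 to 1.06 (adjusted p up to 0.0615).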

How the results depend on the processing

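Of 1681 recomputed values of the members, 1586 kept their side of the threshold. Only 1 reversed where the main or the recomputed value passed: the dimmest Fcgr2b probe at lavage day 4 (-0.02). Changes of sign where neither value passed are counted among the 1586. The calls lost or gained are given beside each gene. The number of changed members at lavage day 2 was 3, but 5 with an offset of 50 and 1 to 2 with an array left out (1 without lavage day 0 replicate 1 or replicate 2). At lavage day 14 it was 2, but 4 with median scaling, and at lavage day 7 it was 2, but 1 to 1 without any 1 of the 4 arrays. Among Fcgr1, Fcgr3, Fcgr4 and Fcer1g, the number that differed from Fcgr2b at lavage day 2 was 1, but 2 with median scaling and 1 to 2 with an array left out. From capsule day 7 to day 28 that number was 2, and 1 to 2 with an array left out. With the replicate block the Fcrla calls at lavage day 2 (adjusted p 0.0844) and day 4 (0.0619) were lost, as were those of Fcgr3 from lavage day 7 to 14 and Fcgrt from day 4 to 7, and it changed no other call of a member. Median scaling moved the median of all genes to 0.136 at lavage day 4, -0.291 at lavage day 14, -0.205 between capsule and lavage at day 7 and -0.137 from capsule day 7 to 28, and the share of called genes that were higher to 69.6% (from 54.9%), 13.8% (from 52.1%), 27.0% (from 48.3%) and 35.7% (from 52.0%). Of 410 counts of the related lists, 73 moved by more than 1.5 times or went to 0. Signal near background limits Fcgr1 at lavage day 14, and signal near the top of the scale limits Fcer1g.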
